A study of Mus musculus with 6 samples.

Results

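The plasminogen activator and pericellular matrix protease genes were examined in cultured muscle satellite cells (MuSCs), the stem cells of skeletal muscle. The set comprised 9 of the 20654 genes in the count table, taken by symbol: the activators *Plau* and *Plat*, the urokinase receptor *Plaur*, the serpin *Serpine2*, the metalloproteinases *Mmp14* and *Mmp2*, and their inhibitors *Timp1*, *Timp2* and *Timp3*. These genes were chosen with earlier results of the same contrast known, so their fold changes and the counts of calls among them are given as a description, without p-values of single genes. RNA was sequenced from 3 wild type and 3 *Piezo1* cKO cultures of C57BL/6 background, which addressed what loss of PIEZO1, a mechanosensitive ion channel, changes in the MuSC transcriptome. Per the paper, the cells labelled wild type were *Piezo1*+/+; *Pax7*CreERT2/+ and the *Piezo1* cKO cells *Piezo1*flox/flox; *Pax7*CreERT2/+, so that both groups carried the tamoxifen-inducible Cre driven from *Pax7*, which restricts recombination to cells that express this gene. MuSCs sorted as VCAM1+, Sca1-, CD31- and CD45- cells were kept on Matrigel for 3 d in growth medium with foetal bovine serum, chicken embryo extract and basic fibroblast growth factor, with 4-OH TMX (1 µM), the active form of tamoxifen, in both groups. The paper also describes daily tamoxifen injection of the mice for its ex vivo studies. The age of the mice is not given in the sources used here, and the labels do not name the animal behind each culture.

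Plasminogen activators cleave the inactive precursor plasminogen to plasmin, a broad protease that degrades fibrin and matrix proteins and activates other proteases. Urokinase, the product of *Plau*, does this at the cell surface when bound to its receptor, and serpins trap the activators in inactive complexes. Membrane-bound MMP14 and secreted MMP2 cut collagens and other matrix proteins, TIMPs block their active sites, and TIMP2 also bridges MMP14 to the MMP2 precursor that MMP14 cleaves. In muscle, these proteases take part in the remodelling of the basal lamina and in the movement of MuSCs after injury.

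*Plaur* and *Serpine2* are the pair whose levels lay on opposite sides of wild type with the largest fold changes relative to their errors, and their promoters are therefore shown. Each sequence is taken from RefSeq (GRCm38.p6) and covers 250 bases before to 50 bases after the start of the gene, with the AP-1 letters TGANTCA and the SP1 letters GGGCGG in capitals where they occur on either strand. The *Plaur* window lies at chr7:24462233-24462532 on the plus strand and the *Serpine2* window at chr1:79858616-79858915 on the minus strand.
Plaur: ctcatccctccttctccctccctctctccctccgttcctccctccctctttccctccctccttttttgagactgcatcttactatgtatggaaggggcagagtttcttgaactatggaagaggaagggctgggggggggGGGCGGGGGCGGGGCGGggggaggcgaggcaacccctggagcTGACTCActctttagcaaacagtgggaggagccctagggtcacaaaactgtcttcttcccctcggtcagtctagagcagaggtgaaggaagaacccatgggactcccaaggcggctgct
Serpine2: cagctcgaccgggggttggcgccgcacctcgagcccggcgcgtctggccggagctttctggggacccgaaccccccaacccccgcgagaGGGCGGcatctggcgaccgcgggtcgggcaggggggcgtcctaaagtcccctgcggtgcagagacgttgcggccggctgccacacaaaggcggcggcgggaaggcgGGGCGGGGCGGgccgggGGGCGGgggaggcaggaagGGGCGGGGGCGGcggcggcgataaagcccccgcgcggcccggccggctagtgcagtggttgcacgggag
The *Plaur* window held 1 AP-1 match, 69 bases before the start, and 3 SP1 matches. The *Serpine2* window held no AP-1 match and 6 SP1 matches, and in both windows a neighbouring pair of SP1 matches shares a base. The RefSeq start of *Serpine2* lies inside the longer GENCODE gene. AP-1 letters occurred in 7.81% and SP1 letters in 35.7% of the 32851 promoters of the same length. Promoters were matched for 6 of the 9 genes. SP1 letters occurred in all 6 (1 match each in *Timp1* and *Timp2*, 2 each in *Timp3* and *Mmp14*), AP-1 letters in *Plaur* only, and the TATA box letters TATAAA in none, against 13.6% of all promoters. A match describes the letters and not a bound site.

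The values are counts of unique molecular identifiers (UMIs), tags that mark each cDNA molecule before PCR, per gene and library. Libraries 1 to 3 held 740936, 931168 and 891531 counts in wild type and 810096, 726378 and 769295 in *Piezo1* cKO. In CPM, counts relative to the library total after TMM scaling, the limit of 3 counts was 3.35 to 4.31 in the different libraries. The 9 genes together took 0.177%, 0.142% and 0.191% of the counts in wild type 1 to 3 and 0.179%, 0.193% and 0.196% in *Piezo1* cKO. The share in wild type 2 (exact 95% binomial interval 0.135% to 0.150%) lay below the intervals of the other 5 libraries, the nearest of which began at 0.167%. These intervals cover counting error only.

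*Piezo1* was counted only a few UMIs above this limit. Its counts were 11, 5 and 6 in wild type and 7, 12 and 9 in *Piezo1* cKO, or 9.49 ± 5.53 and 12.2 ± 3.50 CPM (SD, n = 3). The groups overlapped, and no decrease was measured under the *Piezo1* cKO label (log2 fold change 0.42, SE 0.46, edgeR quasi-likelihood test, adjusted p = 0.791). An exact two-sided permutation test gave p = 0.4, with 0.1 the smallest p that 3 libraries against 3 allow. With oligo-dT primers most UMIs come from the 3′ end of a transcript, and in the paper's scheme of the locus the deleted allele keeps exons downstream of the floxed ones, so these counts do not check the deletion. *Piezo1* cKO therefore stands for the label of these libraries. The study also measured *Piezo1* by RT-qPCR, which was not analysed here.

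The cells carried the markers of MuSCs and myoblasts, with 823 to 1225 counts of *Myod1* and 5 to 26 of *Pax7* per library. The 10 markers of this list, led by *Chrna1*, summed to 4695, 3872 and 4411 CPM in wild type and 4484, 3471 and 4116 CPM in *Piezo1* cKO, and none was called (edgeR, 0 of 10, 2 at an unadjusted p under 0.05, *Cdh15* and *Vcam1*). In this set of 6, 2 libraries stood apart in their differentiation genes. In wild type 2, *Myog*, which encodes the transcription factor that starts terminal differentiation, had 3 counts, against 40 and 45 in the other wild type libraries. In *Piezo1* cKO 2, *Myog* had 203 counts, against 63 and 92. The summed level of 11 differentiation genes was 348, 120 and 303 CPM in wild type and 611, 1833 and 811 CPM in *Piezo1* cKO. All 8 of these genes that were tested had a higher level in every *Piezo1* cKO library than in any wild type library (median log2 fold change 2.27), though none passed the test (edgeR, 0 of 8 called, 5 at an unadjusted p under 0.05: *Mymk*, *Acta1*, *Mylpf*, *Tnnt3* and *Tnnc1*). Of all genes tested, 8.2% were higher without overlap. Log2 fold changes without wild type 2 and without *Piezo1* cKO 2 are given for the 7 tested genes and for *Thbd*.

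Of the 9 genes, 7 had enough counts to be tested, and none was called by edgeR at an adjusted p under 0.05. Among all 8551 genes tested, 67 were called, or 0.784% (0.468% higher and 0.316% lower). At an unadjusted p under 0.05 the count was 2 of 7, against 11.9% of all genes. limma-voom called none of the 7 either. DESeq2 called none of the 5 to which it gave an adjusted p, all but *Plau* and *Mmp2*, and 0.674% of all genes with one. The libraries of the 2 groups did not overlap for 1 of the 7, *Plaur*, which was lower in *Piezo1* cKO. Of all genes tested, 8.31% were lower and 8.2% higher in this way, or 16.5% in all. The log2 fold changes ran from -0.35 to 0.39, with 5 above and 2 below zero and a median of 0.31, against a median of 0.0021 over all genes tested. Because the set was chosen on this contrast, nothing is read from these counts.

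**Figure D1:**
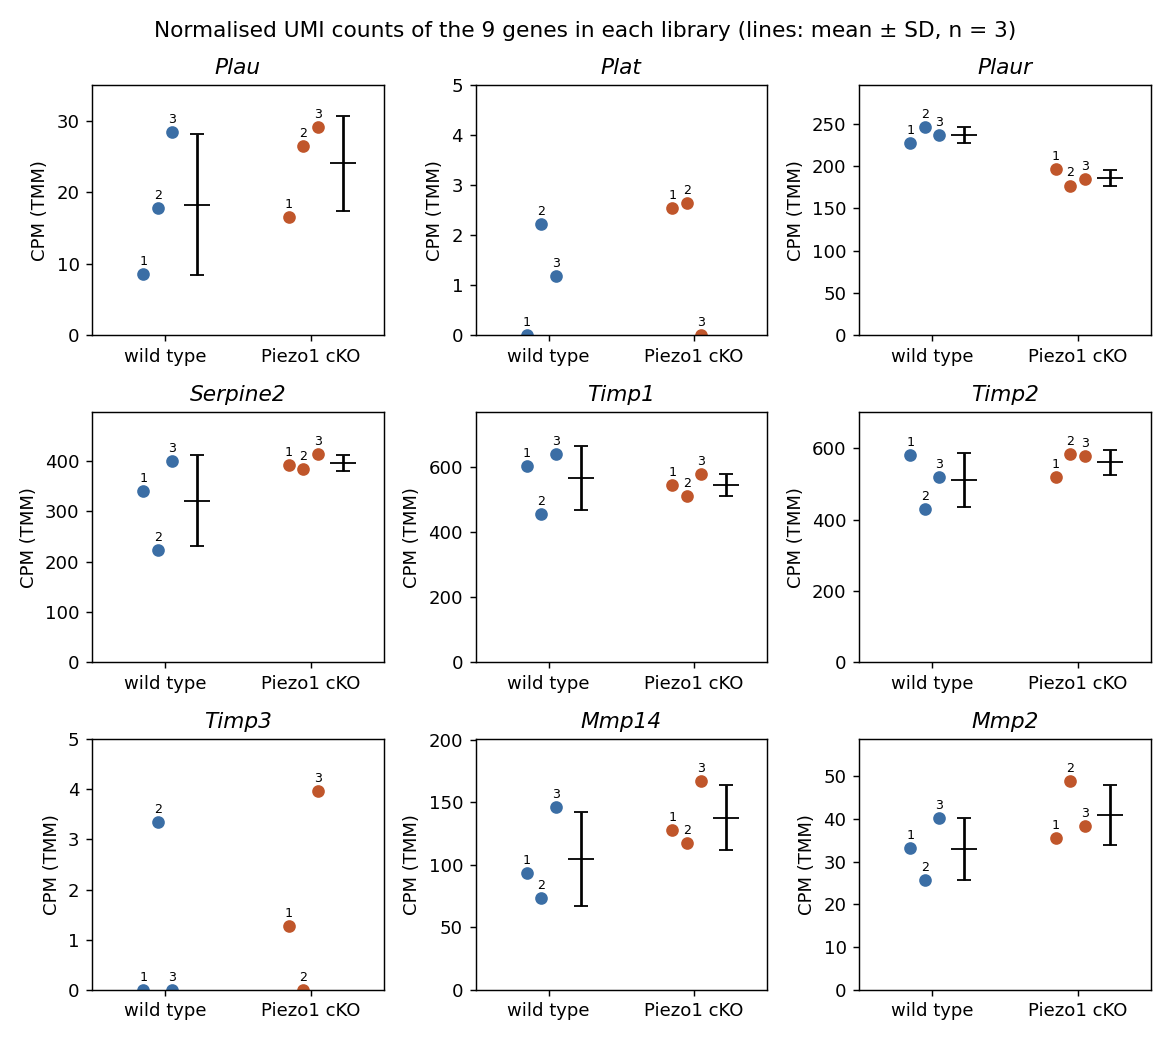
CPM of each of the 9 genes on a linear axis from 0, with 1 point per library (numbered 1 to 3), wild type in blue and *Piezo1* cKO in orange, and lines for the mean ± SD of the 7 tested genes. The *Plaur* points of *Piezo1* cKO lie between 177 and 196 CPM, all below the wild type points at 227 to 247 CPM, whereas the groups overlap for the other 8 genes.

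The urokinase receptor gave even values within each group. *Plaur*, which encodes the surface protein that anchors urokinase, lies on chromosome 7 from 24462484 to 24475968 (GRCm38). It had 158, 221 and 200 counts in wild type and 155, 134 and 139 in *Piezo1* cKO. After scaling these were 227, 247 and 236 CPM and 196, 177 and 184 CPM. The gap between the groups at their nearest points was wider than the range within either group. The mean was 237 ± 9.65 CPM in wild type and 186 ± 9.85 CPM in *Piezo1* cKO, a log2 fold change of -0.35 (SE 0.14), or 0.785 times the wild type level. The coefficient of variation between replicates was 4.08% in wild type and 5.3% in *Piezo1* cKO, below the 7.2% and 8.37% that counting error alone would give. Leaving out wild type 2 or *Piezo1* cKO 2 gave log2 fold changes of -0.31 and -0.32.

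The activators were scarce. *Plau* (chromosome 14, 20836660 to 20843385), the gene of urokinase, had 6, 16 and 24 counts in wild type and 13, 20 and 22 in *Piezo1* cKO, and the groups overlapped over most of their range. Its level was 18.3 ± 9.86 CPM in wild type and 24.0 ± 6.67 CPM in *Piezo1* cKO (log2 fold change 0.35, SE 0.34). Counting error alone would give a coefficient of variation of 25.5% in wild type, where 54.0% was measured. The log2 fold change was 0.32 without wild type 2, 0.27 without *Piezo1* cKO 2 and 0.06 without wild type 1. *Plat* (chromosome 8, 22757727 to 22782844), the gene of tissue plasminogen activator, had 0, 2 and 1 counts in wild type and 2, 2 and 0 in *Piezo1* cKO. No library exceeded the limit of 3 counts, so a difference in *Plat* was not detectable at this depth.

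*Serpine2* differed more among the wild type libraries than between the groups. This gene (chromosome 1, 79794197 to 79861180) encodes a serpin, also called protease nexin, that inhibits urokinase, thrombin and plasmin. It had 236, 199 and 338 counts in wild type and 309, 290 and 312 in *Piezo1* cKO, or 339, 222 and 399 CPM against 392, 383 and 413 CPM. Wild type 1 and 2 lay below all *Piezo1* cKO libraries, and wild type 3 lay among them. The means were 320 ± 90.1 and 396 ± 15.7 CPM, with a log2 fold change of 0.31 (SE 0.15). The coefficient of variation was 28.1% in wild type, where counting error gives 6.23%, and 3.96% in *Piezo1* cKO, where it gives 5.74%. Without wild type 2 the log2 fold change was 0.10, without *Piezo1* cKO 2 it was 0.33, and without wild type 3 it was 0.51.

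The ratio of *Serpine2* to *Plaur* UMIs within a library was examined after the values were seen. It does not depend on library size. It was 1.49, 0.900 and 1.69 in wild type and 1.99, 2.16 and 2.24 in *Piezo1* cKO, with no overlap between the groups. The means were 1.36 ± 0.411 and 2.13 ± 0.128 (SD, n = 3). Of 7 such ratios, picked from the 21 pairs of tested genes in the set, 5 overlapped between the groups. *Timp1* to *Mmp14* was the other that did not. The share of ratios without overlap among other gene pairs was not computed, so nothing is read from this count. As *Serpine2* and *Plaur* were picked for their opposite fold changes, their ratio is a description with no test.

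The 2 metalloproteinases were higher on average in *Piezo1* cKO, with overlapping groups. *Mmp14* (chromosome 14, 54431612 to 54445364), which encodes a collagenase bound to the cell membrane, had 65, 66 and 124 counts in wild type and 101, 89 and 126 in *Piezo1* cKO. In CPM these were 93.5, 73.6 and 146 against 128, 118 and 167. Wild type 3 exceeded 2 of the 3 *Piezo1* cKO libraries. The means were 104.5 ± 37.6 and 137.5 ± 26.0 CPM, with a log2 fold change of 0.39 (SE 0.19). This value depended on single wild type libraries: it was 0.18 without wild type 2 and 0.73 without wild type 3, and only in the latter case did the gene pass the threshold. Without *Piezo1* cKO 2 it was 0.49. *Mmp2* (chromosome 8, 92827291 to 92853420), which encodes the gelatinase that MMP14 activates, had 23, 23 and 34 counts in wild type and 28, 37 and 29 in *Piezo1* cKO. Its level was 33.0 ± 7.25 CPM in wild type and 40.9 ± 7.03 CPM in *Piezo1* cKO (log2 fold change 0.31, SE 0.26). The spread between replicates, 22% and 17.2%, was close to the 19.4% and 17.9% of counting error. Without wild type 2 the log2 fold change was 0.15, and without *Piezo1* cKO 2 it was 0.17.

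The inhibitors *Timp1* and *Timp2* had the highest counts of the set and the smallest differences. *Timp1* (chromosome X, 20870166 to 20874735) encodes a secreted inhibitor of most metalloproteinases. It had 419, 410 and 543 counts in wild type and 431, 387 and 438 in *Piezo1* cKO, and every *Piezo1* cKO level lay inside the wild type range of 457 to 641 CPM. The means were 567 ± 96.9 and 546 ± 34.6 CPM, a log2 fold change of -0.05 (SE 0.14) whose sign turned to 0.02 with total counts and to 0.12 with loess scaling. *Timp2* (chromosome 11, 118301069 to 118355740), the inhibitor that also takes part in MMP2 activation, had 404, 386 and 440 counts in wild type and 409, 442 and 435 in *Piezo1* cKO. Its means were 510 ± 75.6 and 560 ± 35.8 CPM (log2 fold change 0.14, SE 0.14), and wild type 1 and *Piezo1* cKO 2 were nearly level at 581 and 584 CPM. Without wild type 2 the log2 fold changes were -0.18 for *Timp1* and 0.03 for *Timp2*, and without *Piezo1* cKO 2 they were -0.01 and 0.10. *Timp3* (chromosome 10, 86300372 to 86349506), which encodes the inhibitor that stays bound to matrix, had 0, 3 and 0 counts in wild type and 1, 0 and 3 in *Piezo1* cKO, so no difference could be detected. *Timp4* had no count in any library.

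*Timp1* lies inside *Syn1* on the opposite strand, and *Timp2* overlaps *Cep295nl* on the same strand, in both cases without shared exons. *Syn1* had 5 to 17 and *Cep295nl* 1 to 4 counts per library. *Timp3* shares exon sequence with *Syn3* on the opposite strand. The strand setting of the counting is not given in the sources used here, so reads of *Timp3* and *Syn3* cannot be told apart.

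**Figure D2:**
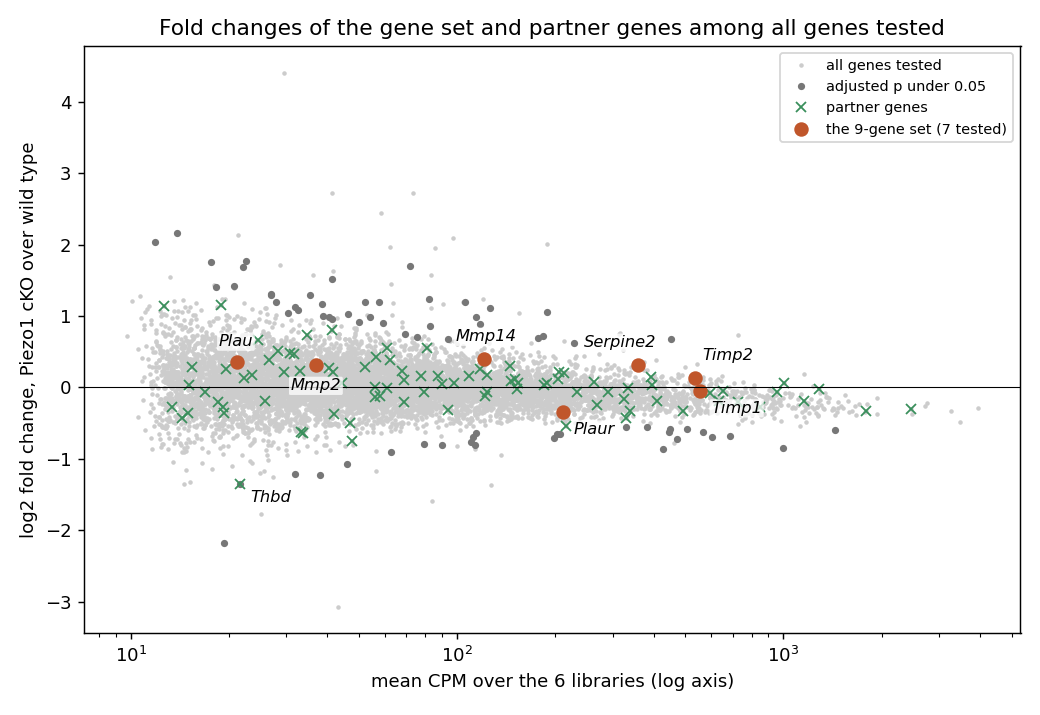
Log2 fold change (*Piezo1* cKO over wild type, vertical axis) against mean CPM over the 6 libraries (horizontal log axis) for the 8551 genes tested, with the 67 called genes in dark grey, partner genes as green crosses and the 7 tested genes of the set in orange. The 7 genes lie between -0.35 and 0.39, inside the cloud of uncalled genes, and *Thbd* is the only partner gene that was called.

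To set the genes side by side, levels were divided by exonic length. With lengths from GENCODE M21, the wild type levels in CPM per kb ran in the order *Timp1* (639 ± 109), *Timp2* (131 ± 19.4), *Plaur* (90.4 ± 3.69), *Serpine2* (38.6 ± 10.9), *Mmp14* (17.5 ± 6.31), *Mmp2* (9.78 ± 2.15) and *Plau* (7.72 ± 4.17), with *Plat* and *Timp3* at 0.18 and 0.14. On this scale the first 3 did not meet their neighbours in any library. The lowest *Timp1* value over all 6 libraries, 515 CPM per kb, was above the highest of *Timp2*, 149.8, the lowest of *Timp2*, 110.5, was above the highest of *Plaur*, 94.2, and the lowest of *Plaur*, 67.6, was above the highest of *Serpine2*, 49.9. *Serpine2* and *Mmp14*, *Mmp14* and *Mmp2*, and *Mmp2* and *Plau* overlapped over the libraries. Among the 8378 tested genes with a length, *Timp1* stood at the 99.1 percentile of wild type level per kb, *Timp2* at 92.1, *Plaur* at 88.5, *Serpine2* at 76.2, *Mmp14* at 58.1, *Mmp2* at 41.6 and *Plau* at 34.9. UMIs counted from the 3′ end do not grow with transcript length, so this scale raises short genes such as *Timp1* (0.888 kb) and lowers long ones such as *Serpine2* (8.287 kb), and the order depends on it. Without the division, *Timp1* and *Timp2* overlapped, and the wild type mean of *Serpine2* (320 CPM) was above that of *Plaur* (237 CPM).

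**Figure D3:**
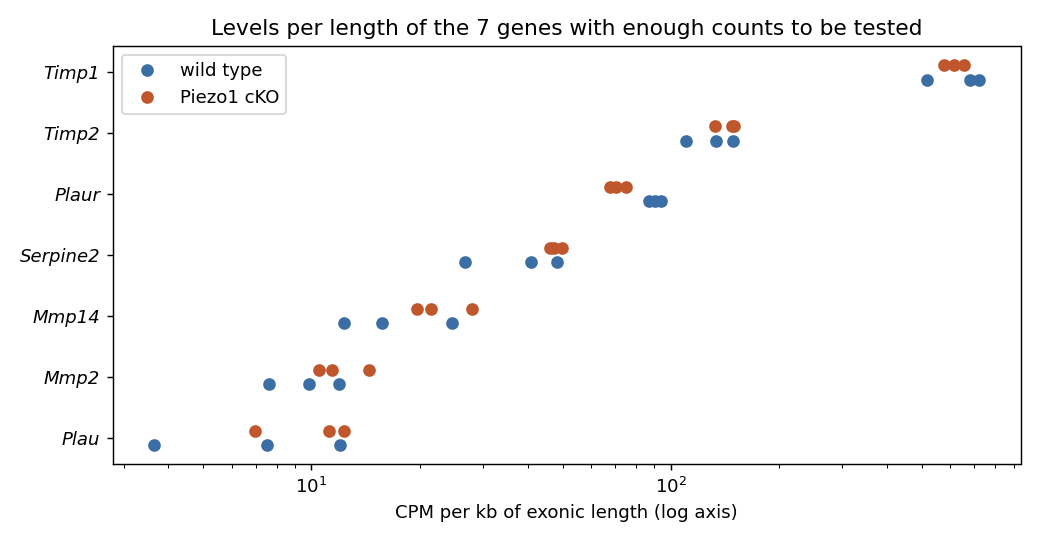
CPM per kb of exonic length (horizontal log axis) for the 7 tested genes, with 1 point per library, wild type in blue and *Piezo1* cKO in orange. *Timp1*, *Timp2* and *Plaur* each occupy a range that the next gene does not reach, and *Plaur* is the only row in which the blue and orange points are apart.

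Wild type 2 was the lowest of the 6 libraries for *Serpine2*, *Timp1*, *Timp2*, *Mmp14* and *Mmp2*, and the highest for *Plaur*. On the log2 scale, its deviation from the mean of the 6 libraries was -0.65 for *Serpine2* and for *Mmp14*, -0.46 for *Mmp2* and 0.23 for *Plaur*. *Plau* departed from this pattern, with its lowest value in wild type 1, a deviation of -0.998. Over the 6 libraries, Pearson's r of log2 CPM was 0.90 between *Serpine2* and *Mmp14*, 0.82 between *Serpine2* and *Mmp2*, 0.80 between *Serpine2* and *Timp2*, and -0.64 between *Serpine2* and *Plaur*. After the group means were removed, these were 0.86, 0.74, 0.73 and -0.42, and *Serpine2* and *Timp1* gave 0.97. Other pairs were near zero over the 6 libraries, such as *Plau* with *Timp1* (0.017) and *Plaur* with *Timp1* (0.019). These are 7 of 21 pairs, picked after their values were seen and given as a description, since they share the libraries, their scaling and the outlying wild type 2.

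**Figure D4:**
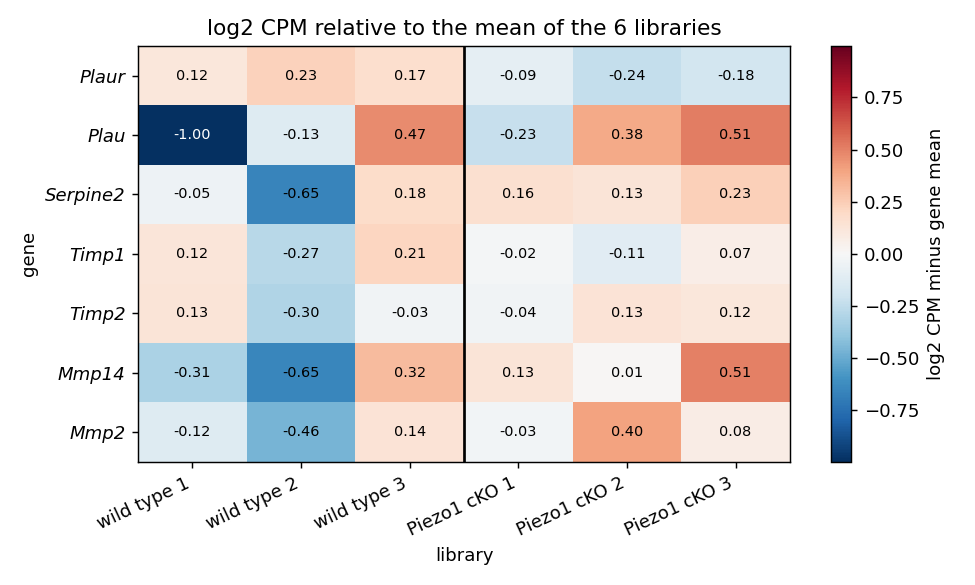
Log2 CPM of each tested gene minus its mean over the 6 libraries, with libraries in columns (the black line separates wild type from *Piezo1* cKO), genes in rows and the value printed in each cell (red above the mean, blue below). The wild type 2 column is blue in every row except *Plaur*, where it is 0.23.

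By the measure of largest fold change relative to its error, *Plaur* led the set, and the genes with the most similar profile were sought among 4698 genes with a mean of at least 50 CPM. Pearson's r over the 6 libraries was 0.995 for *Tapt1*, 0.993 for *Dnph1*, 0.988 for *Umps*, 0.979 for *Phf5a* and 0.977 for *Slc3a2*. *Dnph1* and *Umps* encode enzymes of nucleotide metabolism, *Phf5a* a splicing factor subunit, and *Slc3a2* the heavy chain of amino acid transporters. All 5 were lower in every *Piezo1* cKO library than in any wild type library, with log2 fold changes from -0.26 to -0.43, and none was called by edgeR. The search used the same 6 libraries, so that separation follows from it.

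The other genes of the pathway were taken from 6 lists of 174 genes, of which 154 are in the table and 90 were tested. Over these, 1 gene was called lower and none higher (edgeR, adjusted over all 8551 genes), against 0.316% and 0.468% of all genes, and 15 were at an unadjusted p under 0.05, where 11.9% of all genes were. The median log2 fold change was 0.03, with 46 above and 44 below zero. Without overlap, 5 were higher and 9 lower in *Piezo1* cKO, against 8.2% and 8.31% of all genes. The genes that are named below for an unadjusted p or for groups without overlap, other than *Thbd* and the most abundant genes of each list, were chosen after their values were seen.

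The called gene was *Thbd*, one of 11 tested genes of plasminogen and coagulation, a list with a median log2 fold change of 0.07. It encodes thrombomodulin, the surface receptor that turns thrombin towards activation of protein C and of an inhibitor of fibrinolysis. It had 17, 35 and 25 counts in wild type and 8, 6 and 14 in *Piezo1* cKO. In CPM these were 24.4, 39.0 and 29.5 against 10.1, 7.92 and 18.6, so every *Piezo1* cKO library was below every wild type library. *Thbd* fell by 1.35 on the log2 scale (SE 0.34, edgeR, adjusted p = 0.0243), from 31.0 ± 7.41 to 12.2 ± 5.61 CPM. The call rested on single libraries, as the adjusted p was 0.203 without wild type 2 (log2 fold change -1.14), 0.369 without *Piezo1* cKO 2 (-1.13) and 0.058 without *Piezo1* cKO 1 (-1.24). Over all 6 libraries the call was also lost in edgeR with total counts (adjusted p = 0.0529) and with the replicate block (0.0814). It was lost too in limma-voom (0.069) and in limma-voom with loess scaling (0.0657). Endothelial cells also express *Thbd*, and the sort for CD31- cells selects against them. Their defining marker *Pecam1*, the gene of CD31, had 0 to 2 counts per library, with a summed level of 1.18 to 18.6 CPM over the 5 markers in the table, led by *Tek*. The summed level in wild type was 14.4, 5.58 and 1.18 CPM and in *Piezo1* cKO 3.80, 5.28 and 18.6 CPM, with overlap, and the part of these cells in *Thbd* was not tested. The serine protease genes *Prss23* and *Masp1* were also at an unadjusted p under 0.05, with log2 fold changes of 0.81 (SE 0.26, adjusted p = 0.134) and 0.55 (SE 0.21, adjusted p = 0.235), and *Masp1* was higher without overlap. *Prss23* passed the threshold without wild type 3 and without *Piezo1* cKO 1. Levels in the remaining genes of this list ran up to 987 ± 139 CPM in wild type for *Serpinf1*, a secreted serpin that does not inhibit proteases. *Plg*, the plasminogen gene itself, was not analysed here.

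Of the genes whose products bind the activators or their inhibitors at the cell surface, 22 of 30 were tested and none was called (edgeR, 3 at an unadjusted p under 0.05: *Eno1*, *Sdc4* and *Cd44*). The median log2 fold change was -0.04, and 4 genes (these 3 and *Itgb1*) were lower in *Piezo1* cKO without overlap and none higher. *Sdc4*, a heparan sulphate proteoglycan of the cell surface, was at 221, 316 and 226 CPM in wild type and 212, 166 and 150 CPM in *Piezo1* cKO (log2 fold change -0.53, SE 0.15, adjusted p = 0.0609). It passed the threshold with no filter, with 10 counts in every library, and without wild type 1, wild type 3 or *Piezo1* cKO 1. The 4 with the highest level were *Cd63*, *Eno1*, *Anxa2* and *Itgb1*. *Eno1*, a glycolytic enzyme that also binds plasminogen at the surface, was at 1997 ± 219 CPM in wild type and 1584 ± 321 CPM in *Piezo1* cKO (log2 fold change -0.33, SE 0.16, adjusted p = 0.378). *Anxa2*, part of the plasminogen and tissue activator receptor complex, was at 1235 ± 47.5 and 1081 ± 189 CPM (log2 fold change -0.19, SE 0.15, adjusted p = 0.657). *Itgb1*, the integrin chain that associates with the urokinase receptor, was at 675 ± 43.4 and 592 ± 54.4 CPM (log2 fold change -0.19, SE 0.14, adjusted p = 0.620), and its groups, like those of *Eno1*, did not overlap. *Cd63*, a tetraspanin that binds TIMP1, was at 2721 ± 418 and 2210 ± 305 CPM (log2 fold change -0.30, SE 0.16, adjusted p = 0.461), with overlap. These values depended on the scaling and on *Piezo1* cKO 2. With loess scaling they were -0.062 for *Eno1* and -0.024 for *Itgb1* and turned to 0.030 for *Anxa2* and 0.025 for *Cd63*, and without *Piezo1* cKO 2 they were -0.18, -0.12, -0.056 and -0.19. *Lrp1*, the endocytic receptor that clears activator and inhibitor complexes, had 36 to 64 counts per library. It was named after its values were seen.

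Among 40 other metalloproteinases, 11 were tested and none was called (edgeR, 3 at an unadjusted p under 0.05: *Mmp23*, *Adam12* and *Adam19*), with a median log2 fold change of 0.05. *Adam12*, a metalloproteinase of fusing myoblasts, was at 40.2 ± 13.8 CPM in wild type and 26.5 ± 2.69 CPM in *Piezo1* cKO (log2 fold change -0.63, SE 0.27, adjusted p = 0.323). *Mmp23* was higher and *Adam19* lower without overlap. The log2 fold changes of the 4 most abundant were 0.05 (SE 0.18) for *Bmp1*, the procollagen C-proteinase, 0.15 (SE 0.18) for *Adam10* and -0.12 (SE 0.22) for *Adam9*, which shed surface proteins, and 0.39 (SE 0.21) for the aggrecanase *Adamts4*. Single libraries moved these values, *Adamts4* to 0.14 without wild type 2 and 0.59 without wild type 1, and *Adam10* to 0.030 without *Piezo1* cKO 3 and 0.28 without *Piezo1* cKO 1. *Bmp1* and *Adam9* changed sign, to -0.22 without *Piezo1* cKO 1 and to 0.12 without wild type 3. The adjusted p-values of the 4 lay between 0.468 and 0.950. The gelatinase *Mmp9*, named here after its values were seen, had 4 to 12 counts per library and was not tested.

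Of 20 other inhibitors and matrix regulators, 8 were tested and none was called (edgeR, 2 at an unadjusted p under 0.05: *Cst6* and *Pcolce*), with a median log2 fold change of -0.20. *Cst6*, a secreted cystatin, was lower without overlap (log2 fold change -0.43, SE 0.13, adjusted p = 0.120), and *Pcolce*, the enhancer of the procollagen C-proteinase, gave 0.73 (SE 0.27, adjusted p = 0.215). *Cst6* passed the threshold without wild type 2 and *Pcolce* without wild type 3. *Sparc*, a secreted matrix glycoprotein, was at 927 ± 64.6 CPM in wild type and 767 ± 99.7 CPM in *Piezo1* cKO (log2 fold change -0.27, SE 0.14, adjusted p = 0.438). *Bsg*, an inducer of metalloproteinases, was at 777 ± 82.4 and 672 ± 65.6 CPM (log2 fold change -0.21, SE 0.14, adjusted p = 0.584), and its groups did not overlap. With loess scaling these were -0.076 for *Sparc* and -0.018 for *Bsg*, and *Bsg* was -0.12 without wild type 1 and -0.13 without *Piezo1* cKO 2. The cystatins *Cstb* and *Cst3*, inhibitors of cathepsins, gave log2 fold changes of -0.19 (SE 0.14) and 0.15 (SE 0.13). *Cstb* was -0.095 without *Piezo1* cKO 1, -0.31 without *Piezo1* cKO 3 and -0.068 with loess. *Cst3* was 0.086 without wild type 1 and 0.27 with loess. Of 16 cathepsins and calpain genes, 12 were tested and none was called (edgeR, 1 at an unadjusted p under 0.05, *Ctsl*), with a median log2 fold change of -0.01. *Ctsl* was at 548 ± 117 CPM in wild type and 435 ± 24.3 CPM in *Piezo1* cKO, without overlap (log2 fold change -0.33, SE 0.14, adjusted p = 0.297, and -0.14 without wild type 1). *Capns1*, the calpain small subunit gene, was higher without overlap (log2 fold change 0.20, SE 0.14, adjusted p = 0.612). *Ctsd*, *Ctsb* and *Capn2* gave -0.02, -0.05 and -0.16, and the first 2 of these changed sign with total counts and with loess scaling. *Capn2* was -0.060 with loess, -0.036 without wild type 2 and -0.27 without wild type 1.

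Of 35 growth factor and transcription factor genes tied to the control of these proteases, 26 were tested and none was called (edgeR, 3 at an unadjusted p under 0.05), with a median log2 fold change of 0.09. The 3 were *Tgfb3* (log2 fold change 1.16, SE 0.36, adjusted p = 0.107), *Egr1* (0.55, SE 0.18, adjusted p = 0.159) and *Ltbp2* (-0.75, SE 0.25, adjusted p = 0.162), of which the first 2 were higher without overlap. *Ltbp2* passed the threshold without wild type 1. The AP-1 subunit genes *Jun* and *Junb* gave log2 fold changes of -0.24 (SE 0.14, adjusted p = 0.497) and 0.22 (SE 0.14, adjusted p = 0.576). *Jun* was at 247, 321 and 305 CPM in wild type and 255, 214 and 273 CPM in *Piezo1* cKO, and *Junb* at 242, 155 and 174 CPM against 224, 214 and 220 CPM, with overlap in both cases. *Junb* was 0.095 without wild type 2 and 0.42 without wild type 1, and *Jun* was -0.15 without *Piezo1* cKO 2. *Fgfr1*, a receptor of the fibroblast growth factor in the medium, gave -0.06 (SE 0.14), and *Ltbp1*, which holds latent TGF-β in the matrix, 0.03 (SE 0.14).

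Other cell types of muscle express several of the 9 genes, and their markers are given here because, in bulk RNA, fewer cells of a type and less RNA per cell cannot be told apart. Fibroblasts and fibro-adipogenic cells make TIMPs, *Mmp2* and *Serpine2*. The sort for Sca1- cells selects against fibro-adipogenic cells, which carry Sca1. Of 12 markers of these cells, 10 are in the table and 9 had a count, with a summed level of 311, 429 and 533 CPM in wild type and 413, 412 and 435 CPM in *Piezo1* cKO, led by *Col3a1*. The defining marker *Pdgfra* had 3 to 8 counts in wild type and 1 to 3 in *Piezo1* cKO, while *Dpt* was not analysed here. Of the 4 tested markers, *Dcn*, the gene of a matrix proteoglycan, fell by 2.17 on the log2 scale (SE 0.38, edgeR, adjusted p = 0.000387), from 18, 23 and 37 counts to 8, 5 and 3. *Col1a2* and *Col3a1*, collagen genes, gave 0.85 (SE 0.25, adjusted p = 0.125) and 0.41 (SE 0.16, adjusted p = 0.265), with overlap. *Ly6a*, the gene of Sca1, had 2 to 3 counts in wild type and 5 to 9 in *Piezo1* cKO. *Cd34*, which MuSCs also express, had 53, 172 and 91 counts in wild type and 39, 23 and 35 in *Piezo1* cKO (log2 fold change -1.59, SE 0.40, adjusted p = 0.181). Wild type 2, the library with the lowest *Serpine2* and *Mmp14*, had the most *Cd34* and the least *Myog*, both picked after their values were seen. Its summed fibroblast markers, 429 CPM, lay between those of wild type 1 and wild type 3. A link between these levels was not tested.

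Markers of pericytes and smooth muscle summed to 48.9, 35.7 and 52.0 CPM in wild type and 62.1, 74.0 and 98.1 CPM in *Piezo1* cKO over 6 of 7 genes, led by *Cspg4*. Of their defining genes, *Rgs5* had 0, 0 and 1 counts in wild type and 2, 4 and 6 in *Piezo1* cKO, and *Myh11* had 0 to 1 per library. Neither was tested. Leukocyte markers summed to 10.1 to 29.0 CPM over 4 of 8 genes, led by *Cd68*, and *Ptprc* and *Adgre1* were not analysed here. The summed levels of the differentiation and pericyte markers were higher in every *Piezo1* cKO library than in any wild type library. The pericyte sum was mostly *Cspg4*, the only tested gene of its list. It was at 40.3, 27.9 and 29.5 CPM in wild type and 49.4, 42.3 and 71.6 CPM in *Piezo1* cKO. *Pdgfrb* and *Notch3* overlapped between the groups. Of all genes tested, 8.2% were higher without overlap. The summed fibroblast markers overlapped, and the 4 tested ones split into 2 above and 2 below zero. The part of any of these cell types in the values of the 9 genes was not tested.

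The direction of 6 of the 7 genes was the same under the other scalings, filters and tools and with a block for the replicate number, wherever the gene was tested, and with each library left out in turn, and *Timp1* was the exception. *Plaur* ran from -0.40 to -0.31 with 1 library left out and from -0.36 to -0.28 under the other settings, without being called in any. *Plau* ran from 0.06 to 0.80, *Serpine2* from 0.10 to 0.51, *Timp2* from 0.03 to 0.24, *Mmp14* from 0.18 to 0.73 and *Mmp2* from 0.15 to 0.49 with 1 library left out. With loess scaling *Timp2* reached 0.30 and *Serpine2* 0.46.

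**Figure D5:**
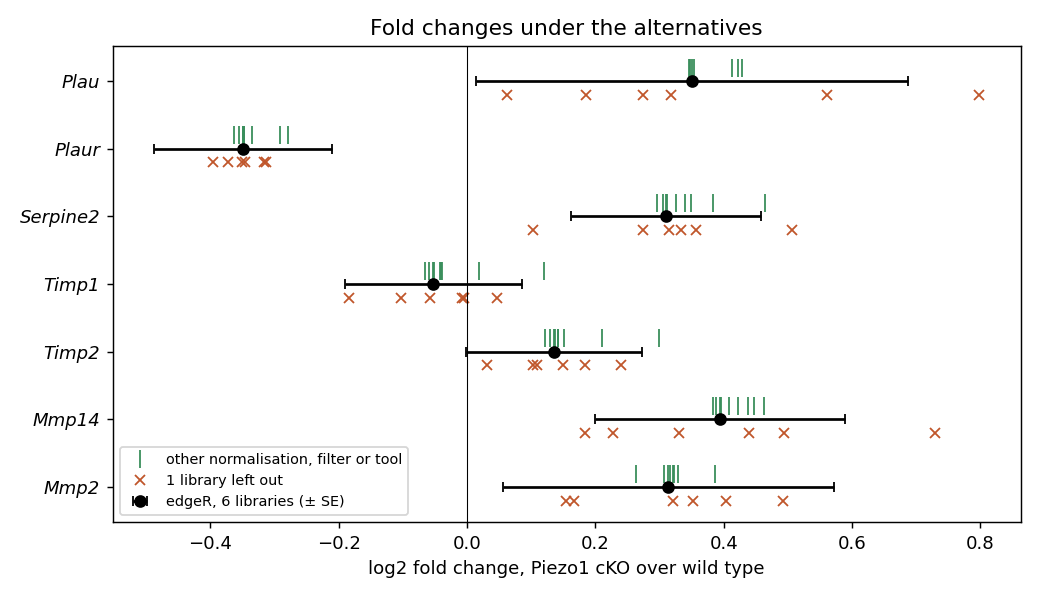
Log2 fold change (*Piezo1* cKO over wild type, horizontal axis) of the 7 tested genes, with the edgeR value over 6 libraries and its SE in black, other normalisations, filters and tools as green ticks and values with 1 library left out as orange crosses. *Plaur* keeps to -0.40 to -0.28, *Timp1* crosses zero, and the crosses of *Mmp14* spread from 0.18 to 0.73.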

How the data were processed

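The data are RNA-seq libraries of MuSCs after 3 d in culture, 3 of wild type and 3 of *Piezo1* cKO, grouped by the sample labels. The authors reverse transcribed total RNA with barcoded oligo-dT primers, mapped reads with STAR 2.7.9a to GRCm38, assigned them with featureCounts 2.0.1 and counted UMIs with UMI-tools 1.1.1. The deposited values are these counts per gene, not normalised. How multimapping reads and strand were handled is not given in the sources used here. Totals ran from 726378 to 931168 counts per library.

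Counts were analysed in R 4.3.3 with edgeR 4.0.16 (TMM, filter with a minimum count of 10, robust quasi-likelihood fit, Benjamini-Hochberg adjustment over 8551 genes, called at an adjusted p under 0.05). *Piezo1* did not pass the filter and was kept for its own test. Correlations used log2 CPM with a prior count of 2. The genes and lists were chosen with earlier results of these data known. All 9 genes were named, with, per partner list, every called gene or otherwise the 4 most abundant. From marker lists, the most abundant gene and the called genes were named by rule. Other genes were named after their values were seen, also where this is not marked. Among them are *Serpinf1*, *Cd34*, *Ly6a*, *Col1a2*, *Cdh15* and *Vcam1*. Alternatives were DESeq2 1.42.0, limma-voom and cyclic loess (limma 3.58.1), DESeq2 size factors, total counts, no filter, 10 counts in every library, a threshold of 0.1, the replicate number as a block, and each library left out. Pairs of replicates differed by a chi-square of 1.64 to 2.61 per degree of freedom, above sampling noise. P-values measure the spread between these libraries, which may be technical. Gene positions came from GENCODE M21 for 19838 genes. On simulated counts with 200 genes changed by a log2 fold of 1, edgeR recovered 139 with 11 false calls among 8376 genes. Y-linked genes were not analysed. The results of some single genes and of a further marker list are not reported here.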

Additional observations from a re-analysis of the deposited data

How the results depend on the processing

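Over all genes, 67 were called, and 129 with no filter, 124 at an adjusted p under 0.1, 27 with DESeq2, and 6 to 174 with 1 library left out (6 without *Piezo1* cKO 2, 29 without *Piezo1* cKO 3, 105 without wild type 1, 131 without wild type 3 and 174 without *Piezo1* cKO 1). The share of calls that were higher was 59.7%, and 71.4% with total counts, 75% with loess, 44.4% with DESeq2 and 66.7% with limma-voom. Of the 9 genes, 0 were called, and 0 to 1 with 1 library left out. The count of partner genes called, 1, was 0 with total counts, loess, DESeq2, limma-voom and the replicate block, 2 with no filter and at an adjusted p under 0.1 (*Sdc4* and *Thbd*), and 0 to 4 with 1 library left out. The gene called was *Sdc4* with 10 counts in every library, a filter that removed *Thbd* from the test, and *Cst6* without wild type 2. DESeq2 gave no adjusted p to 40 partner genes, *Thbd* among them.

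The log2 fold change of *Thbd* was -1.29, -1.46, -1.38 and -1.34, past the threshold no longer, with total counts (adjusted p = 0.0529), loess (0.0657), limma-voom (0.069) and the block (0.0814). Some log2 fold changes changed sign. With total counts they were 0.019 for *Timp1*, 0.026 for *Ctsb*, 0.052 for *Ctsd* and 0.0050 for *Fgfr1*, and with loess 0.12 for *Timp1*, 0.14 for *Ctsb*, 0.23 for *Ctsd*, 0.0065 for *Fgfr1*, 0.030 for *Anxa2* and 0.025 for *Cd63*. With 1 library left out the ranges were -0.18 to 0.046 for *Timp1*, -0.17 to 0.032 for *Ctsb*, -0.11 to 0.091 for *Ctsd*, -0.047 to 0.17 for *Ltbp1*, -0.22 to 0.20 for *Bmp1*, -0.31 to 0.12 for *Adam9* and -0.18 to 0.077 for *Fgfr1*. The cause of these changes was not tested. No setting moved the median of all genes by over 0.1. *Piezo1* gave 0.14 to 0.93 with 1 library left out.

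Libraries share replicate numbers across groups. Between the wild type and *Piezo1* cKO library with the same number, r of the deviations was -0.143, -0.203 and 0.0121 for numbers 1 to 3 (8551 genes). No number gave a clear positive correlation. Counting error weakens such correlations, so they cannot decide whether cultures with the same number were handled together. With the replicate block, 46 genes were called. Depth left *Plat* and *Timp3* at or under 3 counts per library, and *Piezo1* near it.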
